A study of Homo sapiens with 12 samples.

Results

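The MiT/TFE family consists of 4 genes, MITF, TFEB, TFE3 and TFEC, taken here by name from the 40173 Ensembl gene IDs measured by RNA sequencing of 624Mel cells, an established human melanoma line. The cells had been reverse transfected with a negative control siRNA (siCTRL) or with 1 siRNA against MITF (siMITF) and were collected 48 h later. Within each siRNA they received either no cytokine or interferon-γ (IFNγ) at 5 ng/mL for the last 24 h, which gave 4 conditions, siCTRL, siCTRL + IFNγ, siMITF and siMITF + IFNγ, with 3 libraries each. All 12 libraries thus came from the same line and all cells were transfected, so effects of transfection itself were shared by the groups. With only 1 siRNA against MITF, effects of its sequence on other RNAs cannot be told apart from effects of MITF loss. The questions addressed were how far MITF RNA was reduced, whether the level of its paralogues differed after the knockdown, and whether IFNγ altered any of these levels.

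The proteins of this family carry a basic helix-loop-helix leucine zipper (bHLH-ZIP) domain, bind DNA as homodimers or as heterodimers with one another, and recognise E-box motifs such as CACGTG and CATGTG. MITF is the master regulator of the melanocytic lineage and drives pigmentation genes. TFEB and TFE3 control lysosomal and autophagy genes of the CLEAR network, and they are held in the cytoplasm through phosphorylation by mTORC1 at the lysosome, where Rag GTPases and folliculin take part in the regulation. TFEC is known mainly from cells of the myeloid lineage. The RNA levels given here say nothing of protein amount, phosphorylation or nuclear location.

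The values were TPM, each transcript's share of a fixed total after correction for its length, so genes can be compared within a library. Between libraries such a share also depends on how much of the total the other genes took. The listed values summed to 975336 to 982632 TPM per library, and 11850 to 12377 gene IDs per library reached at least 2 TPM. The number of reads behind each library is unknown. Mitochondrial genes took 7.42% to 16.9% of the TPM, and in every condition the library numbered 2 had the lowest share. Melanocytic markers were present in every condition (6 of 6 at a mean of at least 2 TPM). Their summed level was 5825 to 6861 TPM in siCTRL and 5390 to 7135 TPM in siCTRL + IFNγ libraries, against 1635 to 1858 TPM in siMITF and 1612 to 1962 TPM in siMITF + IFNγ libraries. PMEL alone made up most of this sum, with means of 4827, 4759, 1078 and 1055 TPM in the same order. The markers did not all fall. S100B was higher with siMITF (log2 difference averaged over both IFNγ states 0.89, limma adjusted p = 1.41e-08). Lymphocyte, keratinocyte and endothelial markers all had means under 2 TPM, CD3E, a chain of the T cell receptor complex, was listed at 0 throughout, and of the 6 macrophage markers only CD68, a lysosomal protein, and LYZ reached 2 TPM in any condition, while 1 of 5 fibroblast markers (LUM) did.

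MITF (ENSG00000187098) lies on chromosome 3 from 69739456 to 69968336 on the plus strand (GRCh38) and has 20 annotated transcripts. The gene-level values do not separate its isoforms, which start at different promoters. Melanocytes and melanoma cells are known to use the most downstream of these, the M promoter, on which SOX10, PAX3, LEF1 and CREB act. RefSeq (GRCh38.p14) gave 3 MITF starts with a promoter entry, and the 250 bases before the most downstream of them are shown because the genes for these upstream factors are described below. Capitals mark the cyclic AMP response element TGACGTCA, which occupied positions -152 to -145 from the start.
MITF, chr3:69936342-69936591, plus strand: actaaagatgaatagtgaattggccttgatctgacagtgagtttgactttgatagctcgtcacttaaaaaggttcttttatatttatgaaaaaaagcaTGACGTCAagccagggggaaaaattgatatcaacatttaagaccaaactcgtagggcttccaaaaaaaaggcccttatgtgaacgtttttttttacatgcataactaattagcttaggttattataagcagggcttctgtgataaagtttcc
This element, searched on both strands from 250 bases before to 50 bases after each start, was held by 2.25% of the 27305 genes with an entry and by 1 of the 4 family members, MITF itself.

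In the siCTRL libraries MITF RNA stood at 186.9, 229.1 and 217.0 TPM, and siMITF left 36.0, 49.7 and 41.7 TPM. With IFNγ it was 158.0, 246.4 and 243.1 TPM in siCTRL cells and 37.5, 55.1 and 51.3 TPM in siMITF cells. Every siMITF library thus lay below every siCTRL library, with and without the cytokine. The mean level left after knockdown was 20.1% of control without IFNγ and 22.2% with IFNγ. Taken within libraries of the same number, the remainder was 19.3%, 21.7% and 19.2% without IFNγ and 23.8%, 22.3% and 21.1% with it, so the depth of the knockdown varied little between replicates. On the log2(TPM + 1) scale the averaged difference over both IFNγ states was -2.21 (95% interval -2.50 to -1.93, limma adjusted p = 3.19e-08). Among the 12773 tested gene IDs, which reached a condition mean of 2 TPM or more, 41 (0.321%) had a lower difference than MITF. By its mean, MITF ranked 3676 among all gene IDs in siMITF, against 657 in siCTRL. It thus exceeded 90.9% and 98.4% of the IDs, of which 11170 were listed at 0 in every library. RNA from a whole culture cannot tell fewer cells with MITF RNA from less MITF RNA per cell. In each of the 4 conditions the library numbered 1 had the lowest MITF level and the library numbered 2, which had the lowest mitochondrial share, the highest. After the TPM of all other genes were rescaled without the mitochondrial genes, the averaged difference was again -2.21.

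**Figure D1:**
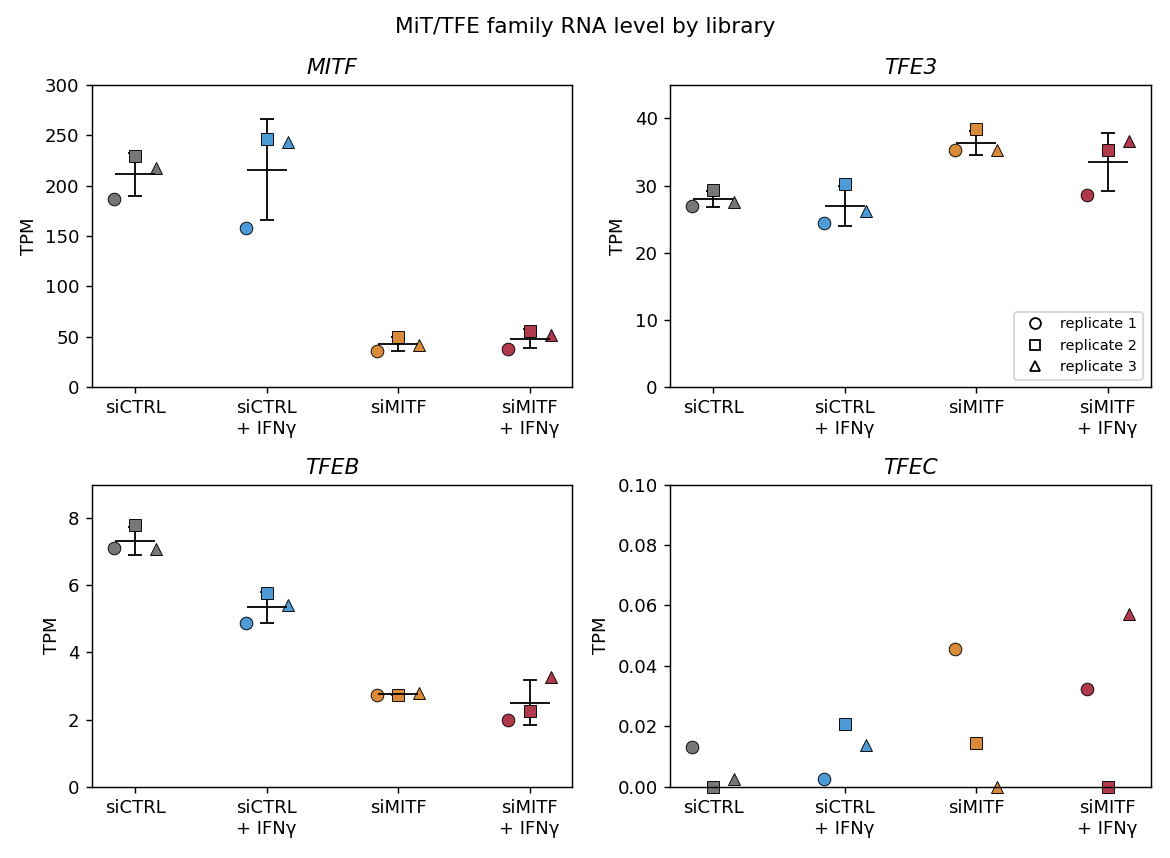
RNA level of the 4 family members in TPM (vertical axes, from 0) in the 4 conditions (horizontal axes). Each point is 1 library with its shape showing the replicate number, bars show mean and SD (n = 3), and TFEC is drawn without bars since it was listed at 0 in 3 libraries. MITF and TFEB lay lower in all siMITF libraries than in the matching siCTRL libraries, while TFE3 lay higher in siMITF than in siCTRL and never above 38.4 TPM.

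TFEB (ENSG00000112561, chromosome 6 from 41683978 to 41736259, minus strand) fell together with MITF. The siCTRL libraries had 7.11, 7.79 and 7.07 TPM, and the siMITF libraries 2.74, 2.75 and 2.78 TPM. With IFNγ the values were 4.86, 5.77 and 5.41 TPM in siCTRL and 1.98, 2.26 and 3.28 TPM in siMITF cells. The libraries did not overlap between the siRNAs in either state, and the mean was 2.66-fold lower without IFNγ and 2.13-fold lower with IFNγ. The log2 differences were -1.15 (95% interval -1.42 to -0.87, limma adjusted p = 1.75e-05) and -0.87 (-1.15 to -0.60, adjusted p = 0.00019). Because 1 was added to every value before the logarithm, these differences understate the change of a gene at so low a level, and a pseudocount of 0.1 gave -1.38 without IFNγ. Averaged over both states the difference was -1.01, and 2.65% of the tested IDs had a lower one. With IFNγ the library numbered 3 kept 60.6% of the level of its same-numbered control while the other two kept 40.7% and 39.2%, so that the spread was wider there.

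TFE3 (ENSG00000068323, chromosome X from 49028726 to 49043410, minus strand) differed in the opposite direction and by less. The siCTRL libraries had 27.0, 29.3 and 27.6 TPM and those with siMITF 35.3, 38.4 and 35.3 TPM, a mean of 130% of control with no overlap between the groups. With IFNγ it was 24.4, 30.2 and 26.3 TPM in siCTRL and 28.6, 35.3 and 36.6 TPM in siMITF cells, 24.1% higher on average, and here the groups overlapped. Each siMITF library nevertheless lay above its same-numbered control, at 131%, 131% and 128% without IFNγ and 117%, 117% and 139% with IFNγ. The log2 difference averaged over both states was 0.33 (95% interval 0.17 to 0.49, limma adjusted p = 0.0025), and 19.2% of all tested IDs had a higher one. Without IFNγ alone it was 0.37 (adjusted p = 0.0161). With IFNγ alone it was 0.30 (adjusted p = 0.0441), and this call was lost in 10 of 12 fits with 1 library removed (0.23 to 0.41, adjusted p up to 0.151; it held without siCTRL + IFNγ library 2 or siMITF + IFNγ library 1) and also when only the 2 conditions compared entered the fit (adjusted p = 0.157). Blocking on replicate number gave an adjusted p of 0.00612. Without IFNγ the call was lost without siCTRL library 1 (0.34, adjusted p = 0.0587), siCTRL library 3 (0.36, 0.052) or siMITF library 2 (0.33, 0.0673), while the averaged difference passed in each of the 12 fits.

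TFEC (ENSG00000105967, chromosome 7 from 115935148 to 116159896, minus strand) was close to absent from the table. Its values were 0.0131, 0 and 0.00243 TPM for siCTRL, 0.00242, 0.0208 and 0.0138 TPM for siCTRL + IFNγ, 0.0457, 0.0145 and 0 TPM for siMITF, and 0.0322, 0 and 0.0573 TPM for siMITF + IFNγ. It was thus listed at 0 in 3 libraries, and the values overlapped between the siRNAs and between the IFNγ states. At this level TFEC failed the filter on low values and was not tested with the other 3 members. In a fit without that filter its averaged siMITF difference on the log2(TPM + 1) scale was 0.02 (95% interval -0.01 to 0.06, adjusted p = 0.363). An increase of TFEC to a level near that of its paralogues was thus not seen in any library. No other gene ID carried the same values as any of the 4 members.

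Of the 3 members tested, all were called for siMITF without IFNγ, with MITF and TFEB lower and TFE3 higher, against 34.8% of all tested IDs called (21.0% higher and 13.8% lower). The same 3 calls were made with IFNγ, where 33.1% of all IDs were called (18.4% higher and 14.7% lower), and for the average of both states, where 48.0% were (28.2% and 19.8%). Changes were thus common across the table at this threshold, so that passing it does not set the family apart. The libraries of the compared conditions did not overlap for 3 of 3 members without IFNγ, against 55.0% of all tested IDs, and for 2 of 3 with IFNγ, against 38.3%. Across all tested IDs the median log2 difference was 0.06 without IFNγ and 0.03 with it and thus below the difference of TFE3 in both.

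The estimated IFNγ differences of the 3 tested members were smaller in size than their siMITF differences, and for MITF the intervals were wide. In siCTRL cells none of the 3 tested members was called by limma (0 of 3, with 1 at an unadjusted p under 0.05), against 12.9% of all tested IDs (6.80% higher and 6.14% lower). For MITF the log2 difference was 0.01 with an interval of -0.39 to 0.41, and for TFE3 it was -0.05 (-0.28 to 0.17). TFEB came closest, with a mean 27.0% lower after IFNγ and no overlap between the libraries, a separation that 29.7% of all tested IDs also showed. Its log2 difference was -0.39 (-0.67 to -0.12), with an adjusted p of 0.0632, or 0.028 once replicate number was blocked, 0.0348 without siMITF + IFNγ library 1 and 0.02 without siMITF + IFNγ library 3. In siMITF cells 0 of 3 members were called, also 0 at an unadjusted p under 0.05, against 20.2% of all tested IDs (7.99% higher and 12.2% lower). There the log2 differences were 0.17 for MITF (-0.24 to 0.57), -0.12 for TFEB (-0.39 to 0.16) and -0.12 for TFE3 (-0.35 to 0.11). Across all tested IDs the median IFNγ difference was -0.07 in siCTRL and -0.10 in siMITF cells. In siMITF cells TFEB and TFE3 thus lay close to that median.

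Whether the siMITF effect depended on IFNγ was tested as the interaction, which is the IFNγ effect after siMITF less the one after siCTRL. It was 0.16 for MITF (95% interval -0.41 to 0.73, limma adjusted p = 0.987), 0.28 for TFEB (-0.11 to 0.67, adjusted p = 0.845) and -0.07 for TFE3 (-0.39 to 0.25, adjusted p = 0.993). None of the 3 members passed (0 of 3, also 0 at an unadjusted p under 0.05), where 0.947% of all tested IDs did (0.705% higher and 0.243% lower). Blocking on replicate number gave intervals of -0.08 to 0.40 for MITF (adjusted p = 0.578) and -0.09 to 0.64 for TFEB (adjusted p = 0.498). Within same-numbered libraries the share left after siMITF was higher with IFNγ in 3 of 3 pairs for MITF and in 3 of 3 for TFEB, so the direction was shared while the difference in knockdown depth did not pass either test. Averaged over both siRNAs, the IFNγ effect was -0.25 for TFEB (-0.45 to -0.06, adjusted p = 0.0489), the only call among the 3 members against 30.4% of all tested IDs (10.5% higher and 19.9% lower), and it lay at the edge of the threshold.

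The summed RNA of the 4 genes shows what these opposite differences amount to. The family total was 246 ± 23.1 TPM in siCTRL, 248 ± 52.9 TPM in siCTRL + IFNγ, 81.6 ± 8.54 TPM in siMITF and 84.0 ± 13.8 TPM in siMITF + IFNγ (mean ± SD, n = 3). Averaged over both IFNγ states it was 164 TPM lower with siMITF, and it was lower in 6 of 6 same-numbered pairs. Without MITF, the paralogues summed to 35.3 ± 1.59 TPM (siCTRL) and 39.1 ± 1.80 TPM (siMITF), and to 32.3 ± 3.41 and 36.0 ± 4.85 TPM with IFNγ. The averaged difference of this sum was 3.76 TPM, and the groups overlapped with IFNγ. With 1 library removed at a time the difference ran from 2.78 to 5.12 TPM, the latter without the siMITF + IFNγ library numbered 1. The higher TFE3 level, less the lower TFEB level, was therefore small beside the loss of MITF RNA. The make-up of the family differed accordingly. MITF made up 85.6 ± 0.907% of the family total in siCTRL and 51.9 ± 3.06% in siMITF libraries, and 86.7 ± 2.11% and 56.9 ± 2.26% with IFNγ. The share of TFE3 was 11.4 ± 0.701% in siCTRL and 44.7 ± 2.70% in siMITF, and 11.1 ± 1.78% and 40.0 ± 1.92% with IFNγ. That of TFEB stayed between 1.97% and 3.70% in every library. In siMITF libraries without IFNγ the ranges of MITF (36.0 to 49.7 TPM) and TFE3 (35.3 to 38.4 TPM) overlapped, whereas the lowest MITF value with IFNγ (37.5 TPM) lay just above the highest of TFE3 (36.6 TPM). In siCTRL cells the order MITF, TFE3, TFEB, TFEC held without overlap.

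The genes whose levels followed each member most closely over the 12 libraries were taken by Pearson's r of log2(TPM + 1), as a description. For MITF these were PSEN2 (r = 0.997), PMEL (0.996) and NRAS (0.995). PMEL, the structural protein of melanosome fibrils, had a mean of 4827 TPM in control cells and of 1078 TPM after knockdown. For TFEB they were POU3F1 (r = 0.985), LRGUK (0.983) and GYG2 (0.982), of which POU3F1, a POU domain transcription factor, had means of 13.2, 10.5, 3.78 and 3.25 TPM in siCTRL, siCTRL + IFNγ, siMITF and siMITF + IFNγ. For TFE3 they were PLOD3 (r = 0.989), SESN2 (0.987) and TPD52L2 (0.986). SESN2, a stress-induced inhibitor of mTORC1 signalling, had 4.80, 4.58, 8.13 and 6.68 TPM in the same order. All of these correlations share the same libraries and the same 4 conditions.

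The promoters of the 4 family members, 9 RefSeq entries in all, held neither CACGTG nor CATGTG within 250 bases before to 50 bases after the start on either strand. Among all genes with an entry, 8.77% held CACGTG and 13.4% held CATGTG. This says only that these letters are not in these windows.

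Other bHLH-ZIP factors that bind E-boxes were examined as a list of 16 genes, of which 15 were tested. For the averaged siMITF effect 4 rose, 2 fell and 9 did not pass. That is 40.0% called, below the 48.0% of all tested IDs, and the median log2 difference was 0.00 against 0.05. MLX, the dimer partner of the glucose-sensing factors MLXIP and MLXIPL, rose from 44.2 ± 3.12 to 66.4 ± 0.937 TPM without IFNγ (averaged log2 difference 0.54 ± 0.053 SE, limma adjusted p = 3.15e-06). The other risers were MXD4 (0.71) and MXD3 (0.66), which antagonise MYC by binding MAX, and USF1 (0.32). USF2 (-0.31) and MXI1 (-0.43) fell. For MYC itself the siMITF difference was 0.03 (adjusted p = 0.709), while its averaged IFNγ difference was -0.47 (adjusted p = 0.000113), from 54.4 to 36.9 TPM in siCTRL cells and from 52.6 to 39.9 TPM in siMITF cells. Among TFE3 and these 15 genes, the difference of TFE3 was thus about that of USF1 and below that of MLX. Over IFNγ, 3 of the 15 rose, MXD4 and USF1 among them, and 2 fell, MYC and MXD3, a share of 33.3% near the 30.4% of all tested IDs, and in 6 of the 12 fits with 1 library removed the calls numbered 3 instead of 5.

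The machinery that acts on TFEB and TFE3 at the lysosome was examined as 22 genes of the Rag, mTORC1 and folliculin complexes, all tested. For the averaged siMITF effect 3 rose, 5 fell and 14 did not pass (36.4% called, below the 48.0% of all tested IDs, median 0.01). FNIP2, a folliculin partner, fell from 29.7 ± 3.49 to 11.5 ± 1.66 TPM without IFNγ and from 24.5 ± 6.05 to 9.47 ± 1.09 TPM with it (averaged -1.28 ± 0.12 SE, limma adjusted p = 2.24e-06). RRAGD, the Rag GTPase with a known role in mTORC1 control of TFEB and TFE3, fell from 36.3 ± 1.14 to 18.1 ± 1.18 TPM (averaged -0.73, adjusted p = 3.72e-06). In siMITF cells RRAGD was higher with IFNγ (24.5 ± 2.93 TPM, 0.41, adjusted p = 0.0139), and the interaction was 0.47 (adjusted p = 0.254). RRAGC (-0.38) and LAMTOR3 (-0.30), a subunit of the Ragulator scaffold, fell as well. LAMTOR2 (0.33), TSC2 (0.28) and RRAGB (0.27) rose. FLCN, folliculin itself, was at 15.3, 15.6, 16.3 and 17.7 TPM in siCTRL, siCTRL + IFNγ, siMITF and siMITF + IFNγ, with an averaged siMITF difference of 0.13 (-0.06 to 0.31, adjusted p = 0.248). Over IFNγ 2 genes rose, RRAGA (0.28) and RRAGC (0.24), and 1 fell, LAMTOR4 (-0.20), which is 13.6% of the list, below the 30.4% of all tested IDs called. Blocking on replicate number gave 6 calls, quantile normalization 7, median centring 7, and leaving out the libraries numbered 2 gave 1. Without siCTRL + IFNγ library 2 or siMITF + IFNγ library 3 there were 5 calls.

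The phosphatase, 14-3-3 and export genes that set the location of TFEB and TFE3 formed a list of 12, all tested. With siMITF 4 rose and none of them fell (33.3% called, against 28.2% of all tested IDs higher and 19.8% lower, median 0.06), namely PPP3CA (0.36), the catalytic subunit of calcineurin, which dephosphorylates TFEB, and the 14-3-3 genes YWHAQ (0.25), YWHAH (0.19) and YWHAG (0.17). MCOLN1, the lysosomal calcium channel upstream of calcineurin, had a mean of 24.4 TPM in siCTRL against 24.5 TPM in siMITF (averaged -0.04, adjusted p = 0.651). Over IFNγ 6 of the 12 fell, where 19.9% of all tested IDs did, with a list median of -0.16 against -0.08 for all tested IDs. XPO1, the nuclear export receptor, fell by 0.35 and YWHAQ fell by 0.28. Without the siMITF library numbered 2, 3 of the 12 fell.

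Upstream regulators of MITF were examined as 13 genes, of which 11 were tested. For the averaged siMITF effect 4 rose and 5 fell, 81.8% called against 48.0% of all tested IDs, with a median of 0.04. LEF1, the partner of β-catenin on the M promoter, rose from 67.0 ± 6.61 to 190 ± 15.7 TPM without IFNγ and from 72.3 ± 9.37 to 221 ± 23.8 TPM with it (averaged 1.55 ± 0.079 SE, limma adjusted p = 8.11e-09). POU3F2, a POU domain factor known to repress MITF, rose from 8.79 ± 0.978 to 24.1 ± 0.866 TPM (averaged 1.44). PAX3 (0.30) and ZEB2 (0.34) rose by less. SOX10, the main activator of MITF in this lineage, fell from 263 ± 3.18 to 226 ± 7.96 TPM and from 281 ± 18.6 to 220 ± 22.9 TPM with IFNγ (averaged -0.29, adjusted p = 0.00101), and so stayed at over 200 TPM in the mean of every condition. The receptors that signal to MITF fell, with differences of -1.32 for KIT, -0.98 for EDNRB and -0.63 for MC1R, and β-catenin (CTNNB1) fell by 0.52. Over IFNγ, KIT rose (0.38), and ATF4 (-0.34) and EDNRB (-0.33) fell, 27.3% of the list against 30.4% of all tested IDs, and blocking on replicate number gave 5 calls.

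Genes known as MITF targets formed a list of 23, of which 22 were tested. With siMITF 20 fell, 1 rose and 1 did not pass (95.5% called, against 48.0% of all tested IDs, 19.8% lower), and the list median was -1.52, a smaller difference than that of MITF itself. Beyond MITF fell 5 of them, TRPM1 (-4.74), MLANA (-4.63), DCT (-3.35), CAPN3 (-2.96) and BIRC7 (-2.59). TBX2, a T-box repressor, rose from 14.3 ± 0.808 to 20.7 ± 0.898 TPM (0.50, limma adjusted p = 0.000128). Over IFNγ 5 rose and 3 fell, 36.4% of the list and near the 30.4% of all tested IDs, and there were 14 calls with replicate number blocked and 13 with quantile normalization. By adjusted p the first risers were RAB27A (0.47) and MLANA (0.44) and the first fallers SLC45A2 (-0.47) and CDK2 (-0.22). Averaged in the same way, the IFNγ difference of MITF itself was 0.09 (95% interval -0.20 to 0.37, limma adjusted p = 0.647). MITF did not pass in either siRNA background.

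Of the target genes, 18 had a RefSeq promoter entry. The motif CATGTG was found in 13 of them (72.2%, against 13.4% of all genes), and all 13 genes fell with siMITF. Of the 5 without it 3 fell and none rose. The others were DIAPH1, which did not pass, and CDKN1A, which was not tested. The longer motif TCATGTG, which contains CATGTG and is known as the M-box, was in 8 (44.4%, against 3.59%). All 8 fell, as did 8 of the 10 without it, where the others were again DIAPH1 and CDKN1A. In the whole list 20 of the 22 tested genes fell, so the falls do not set the genes with a motif apart. Many of these genes are known as targets partly through this motif, so the shares are descriptive. The windows around 5 of these matches before the RefSeq start are shown because they carry the sequence that MITF is known to bind, with the motif or its reverse complement in capitals (GRCh38.p14, each read along the strand of its gene).
GPNMB, chr7:23246701-23246731, plus strand: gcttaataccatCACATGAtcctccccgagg
DCT, chr13:94479799-94479829, minus strand: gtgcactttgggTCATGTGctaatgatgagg
GPR143, chrX:9765862-9765892, minus strand: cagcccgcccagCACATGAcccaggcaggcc
BCL2A1, chr15:79971204-79971234, minus strand: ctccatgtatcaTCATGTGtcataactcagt
TYRP1, chr9:12693228-12693258, plus strand: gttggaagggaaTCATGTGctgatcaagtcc
Their averaged siMITF differences were -1.73 for GPNMB, -3.35 for DCT, -1.54 for GPR143, -1.58 for BCL2A1 and -1.41 for TYRP1.

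The CLEAR list of 33 lysosomal and autophagy genes, known targets of TFEB and TFE3 and in part of MITF, was tested in full. With siMITF 20 fell, 3 rose and 10 did not pass (69.7% called, against 48.0% of all tested IDs, 28.2% higher and 19.8% lower), and the median was -0.30. ATP6V0E1, a subunit of the lysosomal proton pump, fell from 192 ± 10.8 to 48.6 ± 3.44 TPM without IFNγ (averaged -1.78 ± 0.053 SE, limma adjusted p = 9.53e-11). The autophagy receptor SQSTM1 fell from 440 ± 36.0 to 230 ± 16.5 TPM (-0.81), and the autophagosome gene WIPI1 (-0.51) and the proton pump gene ATP6V1H (-0.46) fell as well. GAA, the lysosomal α-glucosidase, rose from 7.65 ± 0.526 to 14.7 ± 0.852 TPM (0.74), and GUSB (0.33) and CTSB (0.21, adjusted p = 0.0451) rose by less. Over IFNγ 8 of the 33 rose and none of them fell, with WIPI1 (0.59) and CTSA (0.46) at the lowest adjusted p and a list median of 0.09. Among all tested IDs 10.5% were higher and 19.9% lower, with a median of -0.08. The 24.2% of the list called higher thus lay above the share of all tested IDs called higher. Calls in either direction were fewer than the 30.4% of all tested IDs. The calls numbered 13 without siMITF + IFNγ library 1 and 16 with quantile normalization. The lower levels in this list thus coincided with lower TFEB and MITF and with higher TFE3 RNA.

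Of the CLEAR genes 18 had a promoter entry, and CACGTG was found in 9 (50.0%, against 8.77% of all genes). Of these 9 genes 6 fell and 1 rose with siMITF, and of the 9 without it 5 fell and 1 rose. The list is known in part through this motif. Windows before the RefSeq start are shown for 5 of them, because they carry the CLEAR element in genes that moved in both directions, with CACGTG in capitals (GRCh38.p14, each read along the strand of its gene).
CLCN7, chr16:1475038-1475067, minus strand: cccgtcgcgcgtCACGTGgccgccggcgcg
ATP6V0D1, chr16:67481199-67481228, minus strand: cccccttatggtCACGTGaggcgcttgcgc
VPS11, chr11:119067772-119067801, plus strand: gctggctcagctCACGTGacaaagctcccg
NEU1, chr6:31862930-31862959, minus strand: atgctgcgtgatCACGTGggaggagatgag
GAA, chr17:80101538-80101567, plus strand: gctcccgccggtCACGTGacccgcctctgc
The first 4 fell, by averaged differences of -1.07 for CLCN7, -0.70 for ATP6V0D1, -0.42 for VPS11 and -0.30 for NEU1, whereas GAA rose.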

How the data were processed

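RNA of 12 libraries, 3 for each of the 4 conditions, had been prepared with the TruSeq RNA v2 kit and sequenced. Per the labels, the authors used Trimmomatic (0.39) for trimming and kallisto (0.46.1) for quantification on the Ensembl GRCh38 transcriptome, and deposited 1 table of TPM per Ensembl gene ID and library. The tool that summed transcripts to genes and the Ensembl release are not given in the sources used here. The authors' differential expression used DESeq2 (1.26.0) on counts, which are not used here. TPM keep no depth, so no counting error could be derived.

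Values were transformed to log2(TPM + 1). All 12 libraries entered a single limma fit (limma 3.58.1, R 4.3.3) with 1 coefficient per condition and a trended empirical Bayes prior, over the 12773 gene IDs that reached a condition mean of 2 TPM or more. Tests were two-sided, the Benjamini-Hochberg adjustment ran over all tested IDs, and an adjusted p under 0.05 was a call. The fit was tested on simulated data. Averaged effects weight both levels of the other factor equally. Libraries with the same number in different conditions deviated together from their condition means (correlations of 0.102 to 0.625 in 18 of 18 pairs, median 0.279). Pairs with different numbers ran from -0.474 to 0.226 (median -0.196), with 6 of 36 over 0.1. Since deviations cancel out within a condition, these sets of pairs are not independent. Blocking on the replicate number was an alternative. The study's methods describe its experiments as biologically replicated. The labels give replicate numbers and do not tie them to cultures.

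Symbols and positions came from GENCODE 44 (GRCh38), which named 35520 of the 40173 IDs, and promoter sequence from RefSeq (GRCh38.p14). The 4 members and the 6 gene lists were chosen with earlier results of these data known. Within a list, up to 4 called genes in each direction were named for siMITF and up to 2 for IFNγ, by lowest adjusted p, and SOX10, FLCN, FNIP2, RRAGD and MCOLN1 were always named. The 3 genes closest to each tested member by Pearson's r were also named. Genes of the printed promoter windows, CD68, LYZ, LUM, CD3E, S100B, CREB1 and MYC's siMITF value were named after their values were seen. Alternatives were pseudocounts of 0.1 and 0.5, other filters and scalings, moderation without a trend, the block, only the 2 conditions compared, and each library left out. Rescaling without mitochondrial genes for the members and lists, and leaving out the 4 libraries numbered 2, were added after seeing the data.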

Additional observations from a re-analysis of the deposited data

Results flagged for a closer look

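Of the genes of the lists, 2 MITF targets responded differently to IFNγ in the 2 siRNA backgrounds by the limma interaction test. CAPN3, a calcium-dependent protease, fell with IFNγ from 488 ± 15.3 to 326 ± 4.79 TPM in siCTRL cells (log2 difference -0.58). In siMITF cells it rose from 43.3 ± 3.81 to 58.6 ± 3.51 TPM (0.43), with no overlap of the libraries in either background. Its interaction was 1.01 (95% interval 0.78 to 1.23, limma adjusted p = 0.00036). RAB27A, the small GTPase of melanosome transport, was at 114 ± 4.93 TPM in siCTRL and 127 ± 8.23 TPM in siCTRL + IFNγ (0.16, adjusted p = 0.186), and it rose from 28.5 ± 1.50 to 49.7 ± 1.82 TPM in siMITF cells (0.78). Its interaction was 0.62 (0.40 to 0.85, adjusted p = 0.011). For MITF itself the interaction was 0.16 and did not pass.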

How the results depend on the processing

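Of 300 alternative values that did not leave out a single library, 274 kept their direction and call, or a count within 1.5 times. The siMITF differences of MITF and TFEB, and the averaged one of TFE3, kept both in every alternative run. TFEB has no value where the required overall mean was 5 TPM, since it was removed, and TFEC was tested only without a filter. The averaged IFNγ effect of the members was not recomputed under the alternatives.

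Without the 4 libraries numbered 2, the MITF difference for IFNγ in siCTRL was -0.039 instead of 0.01. Under the same setting TFE3 no longer passed for siMITF, at 0.36 without IFNγ (adjusted p = 0.0742) and 0.34 with IFNγ (0.091). TFE3 with IFNγ was also lost without a filter on low values (0.30, 0.0782) and with only the 2 conditions compared (0.30, 0.157). TFEB passed for IFNγ in siCTRL with quantile normalization (-0.42, 0.0174), median centring (-0.38, 0.0226) and the replicate block (-0.39, 0.028). Pairing changes only the test of the paralogue sum and leaves its difference at 3.76 TPM, and it was 4.72 TPM after mitochondrial genes were removed.

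List counts of calls over IFNγ moved as follows. Quantile normalization gave 7 Rag, mTORC1 and folliculin genes, 6 upstream regulators, 13 MITF targets and 16 CLEAR genes. Median centring gave 7, 5 and 14 for the first, second and last of these lists. The replicate block gave 6, 5 and 14 for the first 3. Rescaling without mitochondrial genes gave 5 upstream regulators and 14 CLEAR genes. Without the libraries numbered 2 there were 3 other bHLH-ZIP genes, 1 Rag, mTORC1 and folliculin gene and 5 CLEAR genes, and for siMITF 5 Rag, mTORC1 and folliculin genes. The cause of these moves was not tested.

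Over the 12 fits with 1 library removed, values for IFNγ in siCTRL ran from -0.10 to 0.22 for MITF, -0.14 to 0.012 for TFE3 and -0.44 to -0.34 for TFEB, and interactions from -0.053 to 0.32 for MITF and -0.13 to 0.039 for TFE3. The TFE3 siMITF differences ran from 0.33 to 0.40 without and 0.23 to 0.41 with IFNγ, and the paralogue sum from 2.78 to 5.12 TPM. The sign for MITF turned without siCTRL library 1, siCTRL + IFNγ library 2 or 3 (IFNγ in siCTRL) and without siCTRL + IFNγ library 1 (interaction), and that for TFE3 without siCTRL + IFNγ library 1 (IFNγ in siCTRL) and without siCTRL + IFNγ library 2 or siMITF + IFNγ library 1 (interaction). IFNγ calls ran from 3 to 6 in the other bHLH-ZIP list (3 without siCTRL library 1 or 3, siCTRL + IFNγ library 3, siMITF library 3 or siMITF + IFNγ library 2 or 3), 3 to 5 in the Rag list, 3 to 6 in the calcineurin, 14-3-3 and export list and 7 to 13 in the CLEAR list. The number of libraries limits the precision, and read depth is unknown.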

Other observations

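Among the genes named from the lists, 4 had an interaction that passed only with the replicate number as a block, and they are given here after their values were seen. MXD3, a MAX-binding antagonist of MYC, was at 5.18 ± 0.588 TPM in siCTRL, 4.04 ± 0.480 TPM in siCTRL + IFNγ, 11.7 ± 1.45 TPM in siMITF and 5.12 ± 0.821 TPM in siMITF + IFNγ. Its interaction was -0.76, with a limma adjusted p of 0.0959 without the block and 0.0334 with it. KIT, a receptor that signals to MITF, had an interaction of 0.48 (0.598 and 0.0259), with 27.7 ± 3.07 TPM in siMITF and 43.2 ± 5.91 TPM in siMITF + IFNγ. SLC45A2, a melanosomal transporter, had an interaction of -0.60 (0.309 and 0.0324), with 435 ± 20.6 TPM in siMITF and 259 ± 51.0 TPM in siMITF + IFNγ. For ATP6V0E1 the interaction was 0.37 (0.21 and 0.0309).

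CD68, a lysosomal protein that is also a macrophage marker, was at 71.5 ± 13.3 TPM in siCTRL, 75.5 ± 19.1 TPM in siCTRL + IFNγ, 27.3 ± 1.04 TPM in siMITF and 30.5 ± 7.63 TPM in siMITF + IFNγ. The averaged siMITF difference of CD68 was -1.31 (limma adjusted p = 9.24e-06). LYZ, the only other macrophage marker to reach a mean of 2 TPM in any condition, differed in the opposite direction (0.73, adjusted p = 2.41e-06). CSF1R, CD14, ITGAM and PTPRC had means under 2 TPM in all 4 conditions.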
